A study of Mus musculus with 82 samples.

Results

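Creb3l2, Zswim6, Zbtb7c, Cdk19, Slc23a2, Rap1gap2, Casz1, Med13l, Spink13 and Trio are 10 genes at which the number of accessible chromatin peaks differed by large amounts between reprogramming cells given RNase H1(D209N) and cells given Flag. They were picked, out of 21887 protein-coding genes, from the size of that difference at day 3 (Creb3l2, Zswim6, Zbtb7c and Cdk19) or at day 7 (the other 6 genes). A peak was counted for a gene when it overlapped the gene, or when its centre lay within 100 kb of a gene end and no other protein-coding gene end was nearer. The counts on the day that chose a gene are therefore a description. The position and width of each peak, and its presence on the other day, played no part in the choice.

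The cells were OG2-MEFs, mouse embryonic fibroblasts that carry a green fluorescent reporter driven by Oct4 sequences. All of them received OSKM, the factors Oct4, Sox2, Klf4 and c-Myc, by retrovirus. The D209N cells also received RNase H1(D209N) by retrovirus, and the Flag cells, labelled as overexpressing Flag, are taken here as their control. Both arms were collected at day 3 and at day 7. The study sequenced 2 ATAC-seq samples per arm and day, 8 among its 82 samples, and 1 peak list per arm and day was read here. The retroviral vectors act on top of whatever RNase H1 the cells make themselves. No label names a sort for infected cells, so each list may describe a mixed culture.

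ATAC-seq uses a transposase that cuts where DNA is not wrapped tightly, so a peak marks an accessible stretch such as a promoter or an enhancer. RNase H1 removes the RNA strand of RNA:DNA hybrids, and the D209N substitution lies in its catalytic site, so that the protein binds hybrids without cutting them. During reprogramming, fibroblast enhancers close and sites of the pluripotent state open over days, and long genes with many enhancers in their introns offer many places at which this can be seen. A peak list records presence and extent, not strength. A smaller number of cells with an open site and a less open site in every cell cannot be told apart in it.

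The D209N list held 29189 peaks at day 3, against 36375 in the Flag list. At day 7 the numbers were 40452 in D209N and 42439 in Flag. The D209N list was thus 0.802 times as long as the Flag list at day 3 and 0.953 times at day 7, a difference that bears on every count below. Its part in those counts was not tested, and read depth is unknown. Peak names in every list carry the mark rep1, so a list may rest on 1 of the 2 samples. Of 10 fibroblast marker genes, 5 or 6 had a peak within 1 kb of a gene end in each list, while Thy1, Pdgfra and Lum had none in any. Epithelial markers had such a peak at 2 of 6 genes in D209N and 3 in Flag at day 3, and at 4 in either arm at day 7. Of 6 pluripotent markers, 1 had one in D209N at either day and in Flag at day 3, and 0 in Flag at day 7. In every list 2 of 6 macrophage and blood markers and 2 of 5 endothelial markers had one, but Ptprc, Csf1r, Adgre1 and Itgam, and Pecam1, Cdh5 and Tie1, had none. Of 4 muscle markers, 0 had one at day 3 and 2 at day 7, in either arm.

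Where gene starts were read, most of them did not separate the arms. From the RefSeq promoter table (GRCm38.p6), 12 windows of 300 bases were read, for 7 of the 10 genes. For Cdk19, Zbtb7c and Spink13 a window was not found or not used, so their start windows were not compared. Among them is Spink13, which held the 1 D209N-only region at a gene end at day 7. Whether its start separated the arms was not tested. A peak covered a start window in all 4 lists at Creb3l2, Zswim6, Slc23a2, Med13l, Trio, the outer start of Casz1 and an internal start of Rap1gap2. The outer start of Rap1gap2 had a peak in Flag at day 7 and in no other list. The internal start of Casz1 and the other 2 internal starts of Rap1gap2 (chr11:74558978-74559277 and chr11:74590137-74590436) had none in any list. The 7 windows below are shown because they set starts that were open throughout beside starts that were closed or open in 1 list. Capitals mark the GC box GGGCGG, read on both strands (CCGCCC as printed where it lies on the other strand), which 35.7% of the 32851 promoter windows in the table hold. The windows are Creb3l2 at chr6:37442099-37442398 (minus strand), Slc23a2 at chr2:132145059-132145358 (minus), the internal and outer starts of Rap1gap2 at chr11:74522752-74523051 and chr11:74610866-74611165 (both minus), the outer and internal starts of Casz1 at chr4:148804142-148804441 and chr4:148889097-148889396 (both plus), and Trio at chr15:28025799-28026098 (minus).
Creb3l2 start: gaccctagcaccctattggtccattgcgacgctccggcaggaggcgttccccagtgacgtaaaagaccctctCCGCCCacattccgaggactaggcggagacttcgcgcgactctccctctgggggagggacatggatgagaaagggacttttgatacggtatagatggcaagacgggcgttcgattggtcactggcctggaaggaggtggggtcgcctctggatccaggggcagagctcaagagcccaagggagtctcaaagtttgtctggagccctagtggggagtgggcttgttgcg
Slc23a2 start: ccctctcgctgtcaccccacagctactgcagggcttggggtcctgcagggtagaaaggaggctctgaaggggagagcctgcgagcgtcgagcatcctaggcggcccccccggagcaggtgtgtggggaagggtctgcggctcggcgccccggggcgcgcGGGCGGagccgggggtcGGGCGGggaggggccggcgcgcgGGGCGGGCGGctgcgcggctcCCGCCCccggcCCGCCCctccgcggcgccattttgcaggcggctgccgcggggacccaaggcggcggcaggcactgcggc
Rap1gap2 internal start: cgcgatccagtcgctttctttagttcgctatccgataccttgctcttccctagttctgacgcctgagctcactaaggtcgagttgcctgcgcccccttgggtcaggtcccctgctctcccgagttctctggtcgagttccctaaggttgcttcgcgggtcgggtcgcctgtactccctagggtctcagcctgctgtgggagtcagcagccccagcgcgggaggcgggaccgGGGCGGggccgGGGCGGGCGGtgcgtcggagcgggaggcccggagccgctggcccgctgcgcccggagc
Rap1gap2 outer start: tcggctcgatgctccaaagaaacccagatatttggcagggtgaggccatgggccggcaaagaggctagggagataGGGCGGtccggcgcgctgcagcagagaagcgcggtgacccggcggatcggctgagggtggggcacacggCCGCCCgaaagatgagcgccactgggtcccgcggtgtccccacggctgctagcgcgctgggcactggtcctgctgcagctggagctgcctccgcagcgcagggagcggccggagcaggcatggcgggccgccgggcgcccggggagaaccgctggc
Casz1 outer start: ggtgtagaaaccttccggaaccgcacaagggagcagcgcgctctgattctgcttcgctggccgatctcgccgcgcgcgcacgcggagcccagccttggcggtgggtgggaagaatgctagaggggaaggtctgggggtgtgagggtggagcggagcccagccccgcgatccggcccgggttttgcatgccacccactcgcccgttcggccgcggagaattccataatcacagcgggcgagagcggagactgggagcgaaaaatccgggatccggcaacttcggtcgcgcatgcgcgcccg
Casz1 internal start: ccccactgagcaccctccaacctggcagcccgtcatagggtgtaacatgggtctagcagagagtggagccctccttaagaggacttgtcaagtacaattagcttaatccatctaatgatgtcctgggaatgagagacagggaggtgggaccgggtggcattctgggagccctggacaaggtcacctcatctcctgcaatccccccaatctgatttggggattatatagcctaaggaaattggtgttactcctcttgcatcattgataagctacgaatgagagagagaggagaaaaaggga
Trio start: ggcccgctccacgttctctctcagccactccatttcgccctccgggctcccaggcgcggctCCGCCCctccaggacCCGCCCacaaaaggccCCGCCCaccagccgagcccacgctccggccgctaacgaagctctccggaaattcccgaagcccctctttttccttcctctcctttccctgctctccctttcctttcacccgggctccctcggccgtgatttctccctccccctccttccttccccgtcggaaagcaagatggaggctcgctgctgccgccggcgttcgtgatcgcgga
The Slc23a2 window held 6 matches to GGGCGG, the internal Rap1gap2 window 3, the outer Rap1gap2 window 2, the Trio window 3 and the Creb3l2 window 1. Neither Casz1 window held one, although the outer Casz1 start carried a peak in every list and the internal one in none. All 4 Rap1gap2 windows held the box, with 1 match in each of the 2 that had no peak in any list.

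Over the 10 loci together, 74 peaks were listed in D209N and 107 in Flag at day 3, and 121 in D209N and 134 in Flag at day 7. D209N thus had 0.692 times the Flag peaks at day 3 and 0.903 times at day 7. At day 3, 6 loci were lower in D209N by at least 3 peaks, beside 3.94% of the 15633 genes with a peak that day. Cdk19 was higher by 3, beside 0.0768% of those genes. At day 7, 4 loci were lower by at least 3, beside 1.58% of 16680 genes, and 2 were higher, beside 0.671%. The 10 genes held 17 (Slc23a2) to 80 (Zbtb7c) peaks over the 4 lists. Among the 1961 genes with at least 17, the shares of genes apart by at least 3 peaks were 22.8% lower and 0.408% higher at day 3, and 8.47% lower and 3.47% higher at day 7.

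**Figure D1:**
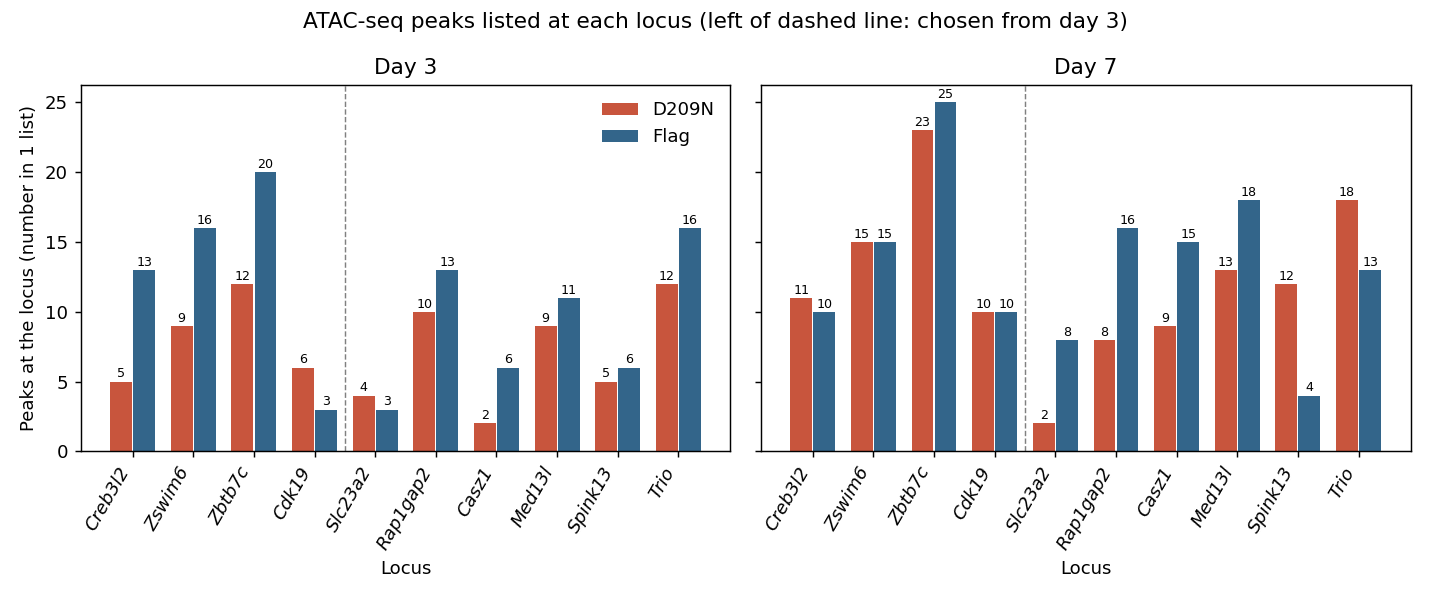
Number of peaks (vertical axis) at each of the 10 loci in D209N and Flag at day 3 and day 7, 1 deposited list per bar. Loci picked from day 3 have like numbers in both arms at day 7, as at Cdk19 with 10 and 10. Choosing by size on 1 day makes this likely in advance.

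The day that did not choose a gene gave smaller differences, an outcome that choosing by size on 1 day makes likely in advance. At day 7 the 4 loci picked from day 3 held 59 peaks in D209N and 60 in Flag, or 0.983 times as many. Their differences, D209N minus Flag, were 1 at Creb3l2, 0 at Zswim6, -2 at Zbtb7c and 0 at Cdk19. None of the 4 was still apart by 3 peaks at day 7. Among the 1961 genes with at least 17 peaks, 8.47% were lower and 3.47% higher by at least 3 that day. At day 3 the 6 loci picked from day 7 held 42 peaks in D209N and 55 in Flag, or 0.764 times as many, close to the 0.802 of the whole lists. There Rap1gap2, Casz1 and Trio were lower in D209N by 3, 4 and 4 peaks, Med13l by 2 and Spink13 by 1, while Slc23a2 was higher by 1.

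Creb3l2 (chr6:37327255-37442276) encodes a transcription factor held in the endoplasmic reticulum membrane, which in mouse cartilage cells drives genes of the secretory pathway. It had 5 peaks in D209N and 13 in Flag at day 3, and 11 in D209N and 10 in Flag at day 7. All 5 D209N peaks of day 3 overlapped Flag peaks, and the other 8 Flag peaks had no counterpart. Of those 8, 7 lay inside the gene, and 5 stood next to each other between 50.4 and 101 kb from the lower end. They were 256 to 598 bp wide, and the 2 widest, of 535 bp (chr6:37336677-37337211) and 598 bp (chr6:37392729-37393326), were broader than the 472 bp median of the Flag list. By day 7, 5 of the 8 were listed in D209N as well. The site at 9.69 kb was listed in Flag alone at day 3, with 535 bp, and in D209N alone at day 7, with 390 bp. The start peak shown above was 728 bp wide in D209N and 780 bp in Flag at day 3, and 820 bp in D209N and 790 bp in Flag at day 7.

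Zswim6 (chr13:107724617-107890064) encodes a zinc finger protein of the SWIM family. It had 9 peaks in D209N and 16 in Flag at day 3, and 15 in each arm at day 7. The 7 Flag-only regions of day 3 lay mostly outside the gene, with 4 below its lower end, 2 beyond its upper end and 1 inside. Their widths were 187 to 475 bp with a median of 231 bp, so 6 of the 7 were narrower than the list median. At day 7, 4 of the 7 were listed in D209N and 5 in Flag. The region at -78.4 kb from the lower end was absent from both D209N lists, with 416 bp in Flag at day 3 and 297 bp at day 7. The start peak was 1326 bp wide in D209N and 1483 bp in Flag at day 3, and 1764 bp in D209N and 1666 bp in Flag at day 7.

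Zbtb7c (chr18:75820178-76148564), the longest of the 10 at 328 kb, encodes a BTB zinc finger protein known as a transcriptional repressor. It had 12 peaks in D209N and 20 in Flag at day 3, and 23 in D209N and 25 in Flag at day 7. The 11 Flag-only regions of day 3 were narrow, 152 to 295 bp, and 9 lay inside the gene. None reached the list median, and 7 were in the D209N list of day 7. A further 2 regions, of 230 and 251 bp, were listed in D209N alone at day 3. The wide gene-end peak was present in every list. In D209N at day 3 it was split in 2 intervals of 734 and 505 bp that carry 1 name, where Flag had a single interval of 1649 bp. At day 7 it was 1710 bp wide in D209N and 1730 bp in Flag. By names rather than intervals, Zbtb7c thus had 11 peaks in D209N at day 3. In Flag at day 7, 2 intervals of 305 and 254 bp near 258 kb also carry 1 name, which gives 24 peaks by names. The 305 bp interval was counted as Flag-only, while the 254 bp interval overlapped a D209N peak.

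Cdk19 (chr10:40349287-40483818) encodes a kinase of the Mediator complex and is the near copy of Cdk8. It had 6 peaks in D209N and 3 in Flag at day 3, and 10 in each arm at day 7. The 3 Flag peaks of day 3 were all shared, and the 3 D209N-only regions lay outside the gene, at -11.0, 151 and 162 kb from its lower end. Their widths were 244, 286 and 655 bp. The widest, at chr10:40510910-40511564, was the 1 D209N-only region of day 3 at the 10 loci that reached its list's median of 464 bp. All 3 were listed in both arms at day 7. There the last of them was 215 bp wide in D209N and 688 bp in Flag, and a separate D209N-only interval of 173 bp (chr10:40511653-40511825) lay just beyond the Flag peak.

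**Figure D2:**
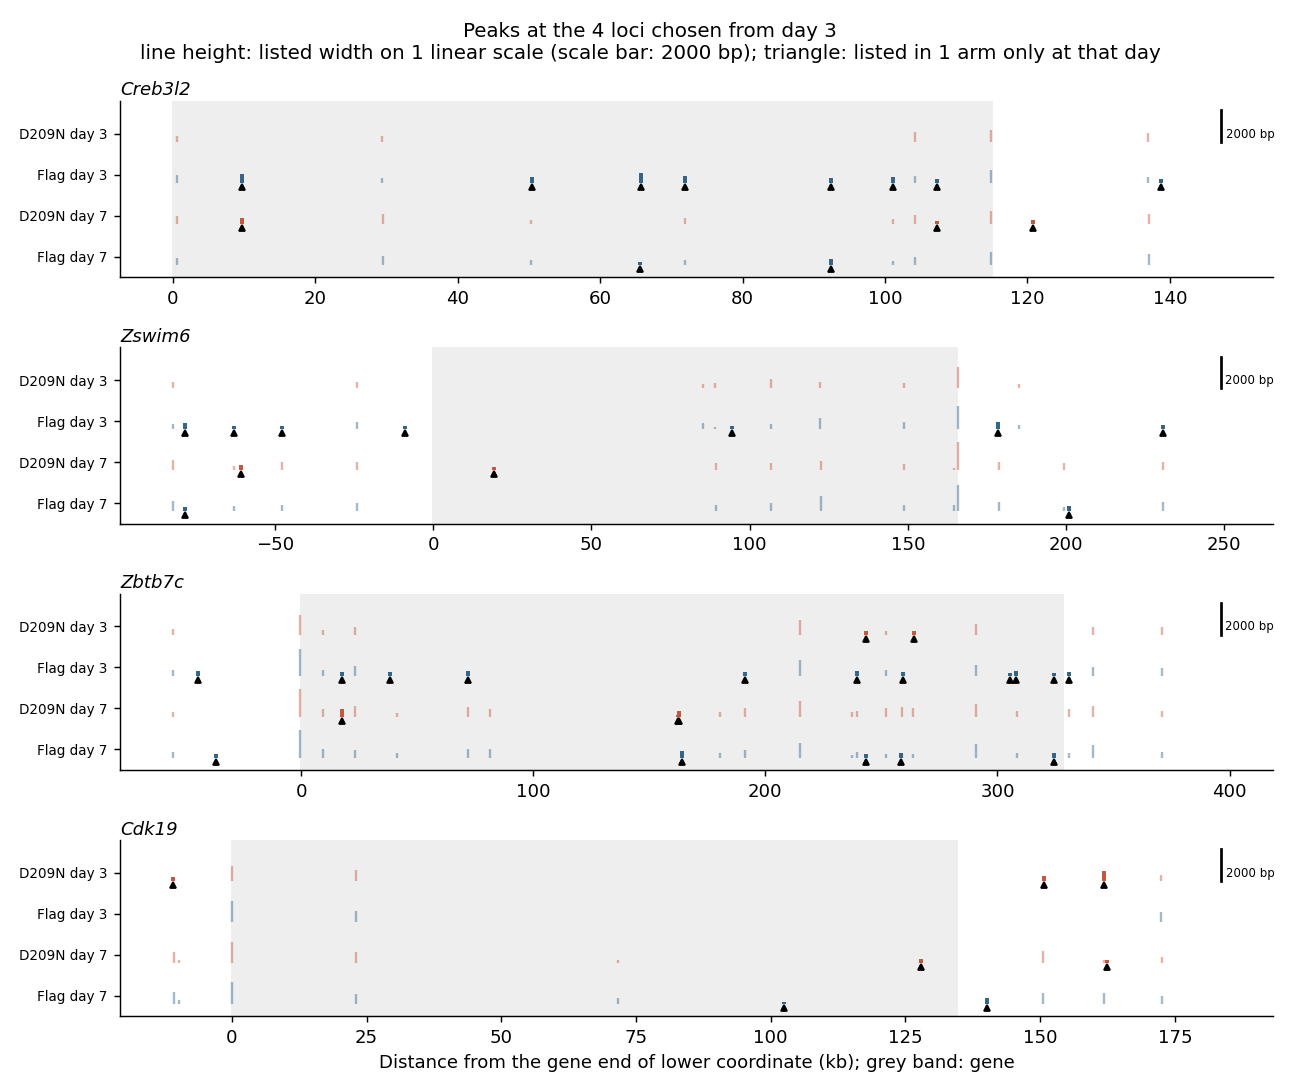
Peaks of the 4 lists along Creb3l2, Zswim6, Zbtb7c and Cdk19, with distance from the lower gene end in kb on the horizontal axis, the gene as a grey band, line height as peak width and triangles under peaks listed in 1 arm at that day. Triangles crowd the Flag row at day 3 for Creb3l2, Zswim6 and Zbtb7c and the D209N row for Cdk19. At day 7 the Flag row holds fewer at Creb3l2, Zswim6 and Zbtb7c, and the D209N row holds 2 or 3 at each of the 4 loci.

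Slc23a2 (chr2:132052496-132145320) encodes the sodium-dependent vitamin C transporter found in most tissues, and a culture medium named for the infected cells contained vitamin C. It had 4 peaks in D209N and 3 in Flag at day 3, and 2 in D209N and 8 in Flag at day 7. The 2 D209N peaks of day 7 were shared with Flag and were the start peak, 837 bp in D209N and 862 bp in Flag, and an intragenic peak at 79.1 kb. The 6 Flag-only regions of day 7 were 174 to 383 bp wide, all narrower than the list median of 464 bp. Of these, 5 stood in an unbroken run between -7.64 and 62.1 kb from the lower end. Of the 6, 3 had been listed in D209N at day 3, so D209N held fewer peaks here at day 7 than at day 3, whereas its whole list was longer at day 7. The site near 100 kb was listed in D209N alone at day 3, with 218 bp, and in Flag alone at day 7, with 174 bp.

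Rap1gap2 (chr11:74383356-74610915) encodes a GTPase-activating protein that switches off the small GTPase Rap1. It had 10 peaks in D209N and 13 in Flag at day 3, and 8 in D209N and 16 in Flag at day 7. All 8 D209N peaks of day 7 were shared. The 8 Flag-only regions ran from -4.22 kb to the upper end of the gene, with widths of 206 to 709 bp. The widest, at chr11:74483347-74484055, was the broadest region listed in 1 arm at any of the 10 loci, and neither day 3 list held it. Another was the 340 bp peak on the outer start, at chr11:74610754-74611093. Neither of these had a counterpart in D209N at either day. The internal start printed above had a peak in every list, with 661 bp in D209N and 520 bp in Flag at day 3 and 1078 bp in D209N and 901 bp in Flag at day 7.

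Casz1 (chr4:148804366-148954893) encodes a zinc finger transcription factor needed for heart development in the mouse. It had 2 peaks in D209N and 6 in Flag at day 3, and 9 in D209N and 15 in Flag at day 7. At day 3 the shared peaks were the outer start, 447 bp in D209N and 360 bp in Flag, and a region at 96.6 kb. The 4 Flag-only regions of day 3, 74 to 467 bp wide, were all listed in both arms at day 7. The 7 Flag-only regions of day 7 were at other sites, and none of the 7 was listed at day 3 in either arm. They were 104 to 513 bp wide, and the widest (chr4:148914755-148915267) was the 1 that reached the list median. Casz1 was thus lower in D209N on both days, at different regions.

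Med13l (chr5:118560330-118765438) encodes a subunit that joins the kinase module, of which Cdk19 can be part, to the rest of Mediator. It had 9 peaks in D209N and 11 in Flag at day 3, and 13 in D209N and 18 in Flag at day 7. The 7 Flag-only regions of day 7 lay between 40.1 and 221 kb from the lower end, 6 of them inside the gene, with widths of 205 to 381 bp. Of these, 2 had also been Flag-only at day 3, at 40.2 and 178 kb, and 5 were at no site listed on day 3. The site near 31.8 kb was the 1 region at the 10 loci that D209N alone listed on both days, with 281 bp at day 3 and 118 bp at day 7. A D209N-only region of day 3 was 6 bp long and shared its name with a 519 bp neighbour. Med13l was the 1 locus with peaks close to the 100 kb limit. Peaks 94.9 to 95.0 kb from its end were counted in all 4 lists, and peaks at 101 kb, also in all 4, were not.

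Spink13 (chr18:62607499-62741387) encodes a Kazal-type inhibitor of serine proteases, expressed in the epididymis of rodents. It had 5 peaks in D209N and 6 in Flag at day 3, and 12 in D209N and 4 in Flag at day 7. All 4 Flag peaks of day 7 were shared, and the 8 D209N-only regions were 198 to 293 bp wide. Of these, 6 followed each other without a shared region between 121 and 197 kb. One lay at the upper gene end, at 134 kb. Of the 8, 6 were in neither day 3 list, 1 had been in D209N at day 3 and 2 in Flag. The one at 33.4 kb lies inside Spink10, another Spink gene, as well.

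Trio (chr15:27730649-28025848) encodes an exchange factor that activates the small GTPase Rac1. It had 12 peaks in D209N and 16 in Flag at day 3, and 18 in D209N and 13 in Flag at day 7. At day 3 all 12 D209N peaks were shared, and there were 4 Flag-only regions of 296 to 385 bp. The one at 254 kb lies inside Gm29975 as well. At day 7 there were 7 D209N-only regions of 183 to 371 bp, between 21.6 and 340 kb, and 2 Flag-only regions of 387 and 550 bp. The site at 47.6 kb was listed in Flag alone at day 3, with 307 bp, and in D209N alone at day 7, with 322 bp. The region at 351 kb was listed in Flag alone on both days, with 385 bp at day 3 and 387 bp at day 7. At the start, the peak was 922 bp wide in D209N and 810 bp in Flag at day 3, and 2080 bp in D209N and 2148 bp in Flag at day 7, when it took in the neighbouring peak of day 3.

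**Figure D3:**
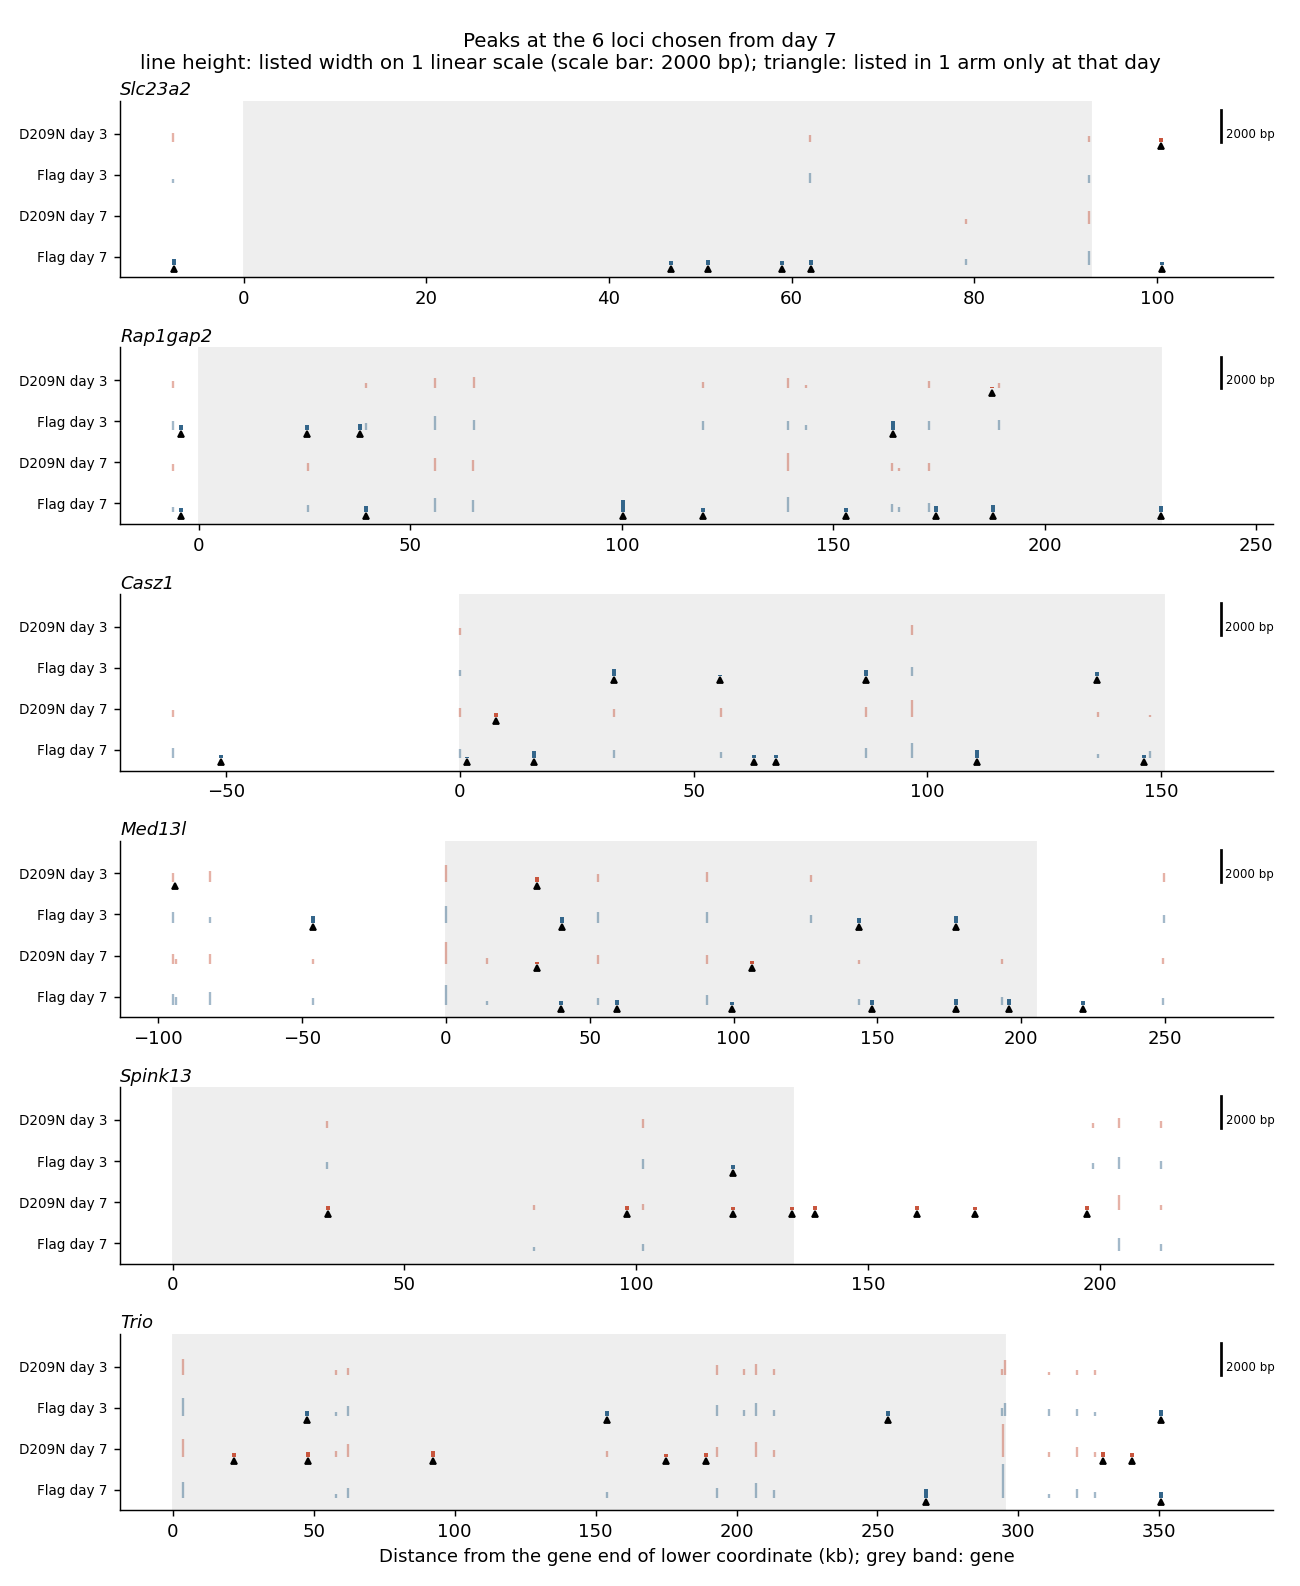
Peaks of the 4 lists along Slc23a2, Rap1gap2, Casz1, Med13l, Spink13 and Trio, drawn as distance from the lower gene end in kb, with line height as peak width and triangles under peaks listed in 1 arm at that day. At day 7 the triangles lie in the Flag row for the first 4 genes, apart from 1 in D209N at Casz1 and 2 at Med13l, and in the D209N row for Spink13 and, but for 2, for Trio.

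Merged by overlap of at least 1 bp, the peaks of the 10 loci formed 116 regions at day 3. Of these, 9 were listed in D209N only (7.76%, Wilson 95% interval 4.14 to 14.1%), 43 in Flag only (37.1%, 28.8 to 46.1%) and 64 in both. Over all regions of the genome 7.63% were D209N-only and 26.3% Flag-only that day. At day 7 there were 162 regions, with 28 in D209N only (17.3%, 12.2 to 23.8%), 41 in Flag only (25.3%, 19.2 to 32.5%) and 93 in both, beside 11.8% and 15.7% of all regions. These intervals cover counting error only and treat neighbouring regions as separate cases. The loci were chosen by differences in peak number, so how far their shares lie from those of all regions is a description only.

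Regions listed in 1 arm were narrow at the loci, as they were across the genome. At day 3 their median width was 244 bp for D209N-only and 290 bp for Flag-only regions, and at day 7 it was 244 and 297 bp. Over all regions the medians were 264.5 and 287 bp at day 3 and 253 and 247 bp at day 7. Regions in both arms were broader, with medians of 458 bp in D209N and 497.5 bp in Flag at day 3, and 503 bp in D209N and 489 bp in Flag at day 7. Few of the regions in 1 arm reached the median width of their own list. At day 3 they were 1 of 9 D209N-only and 4 of 43 Flag-only regions (11.1% and 9.30%, against 5.07% and 10.0% over all regions). At day 7 they were 1 of 28 D209N-only and 3 of 41 Flag-only regions (3.57% and 7.32%, against 4.96% and 4.43%). Those 9 regions were at Cdk19 and Zbtb7c in D209N and at Creb3l2 (2 regions), Zswim6, Rap1gap2 (once on each day), Casz1 and Trio in Flag. Most of the differences in peak number at these loci thus came from peaks narrower than the typical listed peak.

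**Figure D4:**
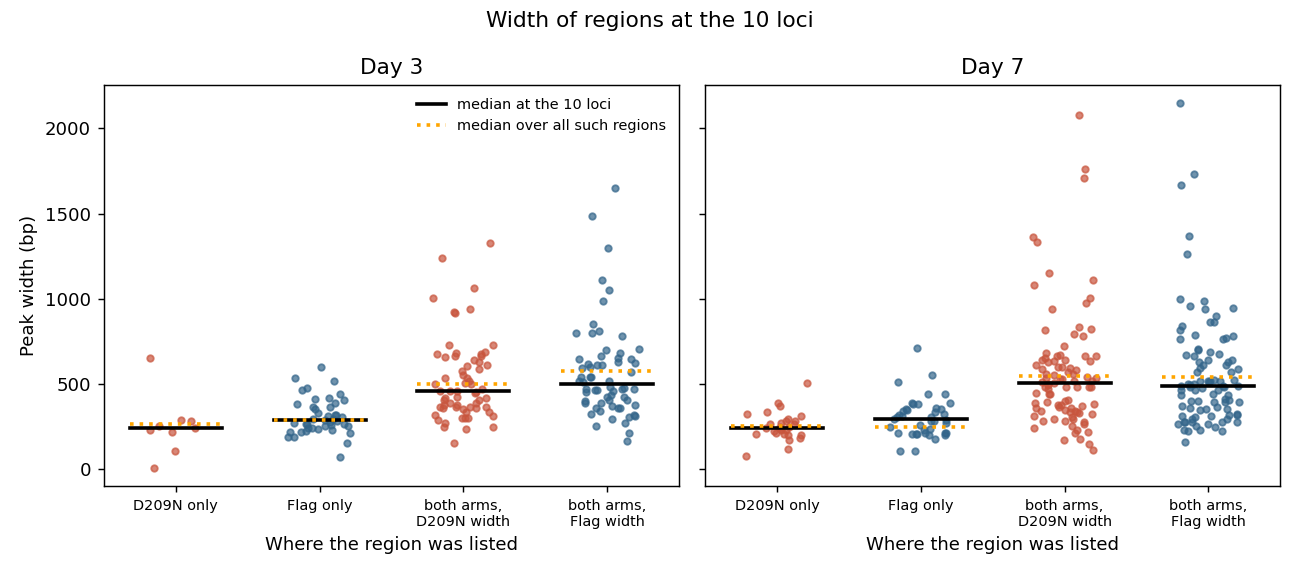
Widths in bp (vertical) of regions listed in 1 arm and of regions listed in both arms at the 10 loci, by day, with 1 point per region, black lines for the medians and dotted lines for the medians over all regions of that kind. Regions in 1 arm have medians of 244 to 297 bp, and regions in both arms of 458 to 503 bp.

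Where both arms had a peak, the median width ratio was near that over all regions, while single regions varied. D209N was the wider in 20 of 64 such regions at day 3 and 44 of 93 at day 7. The median of D209N width over Flag width was 0.893 at day 3 and 0.997 at day 7, against 0.902 and 1.00 over all regions. At day 3 the farthest apart were the region at 311 kb of Trio, with 153 bp in D209N and 421 bp in Flag, and a Zswim6 region with 356 bp in D209N and 163 bp in Flag. At day 7 they were a Casz1 region with 113 bp in D209N and 476 bp in Flag and the Cdk19 peak near 162 kb with 215 bp in D209N and 688 bp in Flag. The start peak of Med13l was 1066 bp wide in D209N and 1050 bp in Flag at day 3, and 1365 bp in D209N and 1264 bp in Flag at day 7.

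Few regions listed in 1 arm lay at gene ends, at the loci as in the genome. Within 1 kb of the ends of the 10 genes lay 0 of 9 D209N-only and 0 of 43 Flag-only regions at day 3, against 10 of the 64 regions in both arms. At day 7 it was 1 of 28 D209N-only regions, at Spink13, and 1 of 41 Flag-only regions, at Rap1gap2, against 10 of 93 in both. Over all regions, those near the ends of any gene made up 10.8% of D209N-only and 14.5% of Flag-only regions at day 3, and 7.85% and 10.2% at day 7. Of regions in both arms, they made up 39.3% at day 3 and 35.7% at day 7 over all regions. At the loci these shares were lower, at 15.6% and 10.8%. Inside the genes but away from the ends lay 31 of the 43 Flag-only regions of day 3 and 30 of the 41 of day 7, and 18 of the 28 D209N-only regions of day 7. Exons and introns were not separated here.

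Many regions absent from D209N at day 3 were listed there later. Of the 43 Flag-only regions of day 3, 27 were in the D209N list of day 7 (62.8%, Wilson 95% interval 47.9 to 75.6%), against 53.0% over all Flag-only regions. Of the same 43, 30 were in the Flag list of day 7 (69.8%, against 53.5% over all Flag-only regions) and 8 in neither list (18.6%, against 38.8%). The differences of day 7 were mostly at sites without a peak at day 3. Of the 28 D209N-only regions of day 7, 21 were in neither day 3 list (75.0%, against 67.0% over all such regions), and so were 27 of the 41 Flag-only regions (65.9%, against 75.5%). In all, 16 regions were listed in 1 arm on both days, with 9 in the same arm each time and 7 in the other arm at day 7. Over the genome 1036 such regions kept their arm and 1059 changed it. The 7 at the loci were at Creb3l2 (2 regions), Zbtb7c (2 regions), Slc23a2, Spink13 and Trio.

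The peak names carry serial numbers that ascend along each chromosome, and some numbers are missing. The share of numbers present was 79.5% in D209N and 90.0% in Flag at day 3, and 73.0% in D209N and 78.5% in Flag at day 7. No source used here says what the missing numbers stood for. For each region listed in 1 arm, the other arm's list was searched for a missing number between the peaks on its 2 sides. Regions between the same 2 peaks share the numbers missing there, so they are not separate cases, although the intervals treat them so. The loci were chosen by differences in peak number, which can crowd such regions together, so their shares are a description only. At day 7, 5 of the 41 Flag-only regions (12.2%, Wilson 95% interval 5.32 to 25.5%) had no missing number, against 26.4% of all Flag-only regions, and 7 of the 28 D209N-only regions (25.0%, 12.7 to 43.4%) had none, against 37.3% of all D209N-only regions. Every Flag-only region at Slc23a2, Casz1 and Med13l and every D209N-only region at Spink13 and Trio at day 7 lay where a number was missing in the other list. At Casz1 the numbers spanned by the locus were 21 in D209N and 18 in Flag, and at Med13l 21 in D209N and 20 in Flag, the opposite of the listed peaks. At day 3, 19 of the 43 Flag-only regions (44.2%) had no missing number in D209N, against 42.3% of all. They included all 4 at Casz1 and 7 of 11 at Zbtb7c. At Creb3l2, by contrast, 7 of 8 lay beside a missing number, but 5 of these stood together beside the same 1.

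Set among all genes, the 10 were near the edge on the day that chose them, without being alone there. Their choice by this difference fixed that place in advance. On the other day some were far from the edge. Spink13 had -1 at day 3, which 5487 genes reached or passed, and Creb3l2 had 1 at day 7, as did or exceeded 2521. Outside the 10, the genes far lower in D209N at day 3 included Robo1 with 10 peaks in D209N and 21 in Flag and App with 3 in D209N and 11 in Flag. On the higher side was Fbxl7, with 6 in D209N and 2 in Flag. At day 7 the furthest were Arhgap26 with 20 in D209N and 29 in Flag on the lower side and Gse1 with 28 in D209N and 21 in Flag on the higher side. In the main count Spink13 had the highest difference of any gene at day 7, with 12 in D209N and 4 in Flag. With the widest peaks and every list as long as the shortest, it had 3 in each arm. Creb3l2 and Zbtb7c shared -8 at day 3 with other genes, while Robo1 went beyond it.

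**Figure D5:**
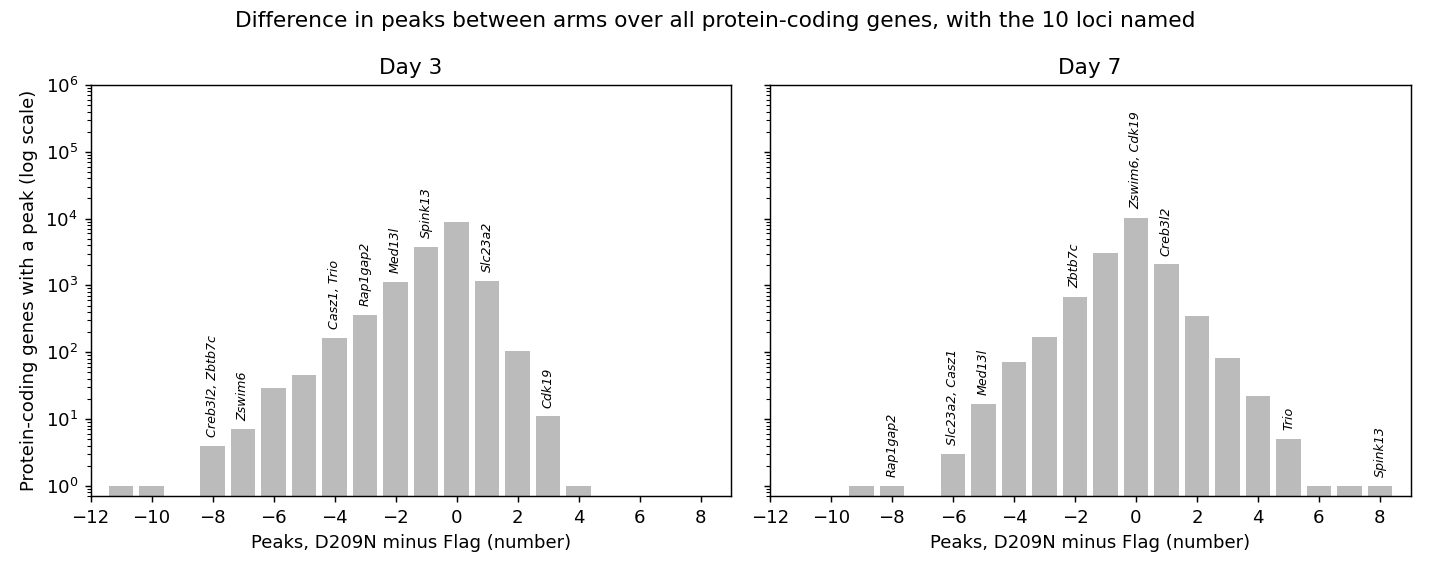
Number of protein-coding genes with a peak (vertical, log scale) by difference in peak number, D209N minus Flag (horizontal), at day 3 and day 7, with the 10 loci named above their bars. Creb3l2 and Zbtb7c stand at -8 at day 3, and Rap1gap2 at -8 and Spink13 at 8 at day 7. No other gene is as high as Spink13.

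Many relatives of the 10 genes held few peaks or none. Of 36 other genes of their families, 27 had a peak in either arm at day 3, and D209N had fewer than Flag at 11 and more at 5. At day 7, 26 had a peak, and D209N had fewer at 7 and more at 4. At day 3, 3 of the 36 were lower by at least 3 peaks, namely Creb3l1 with 3 in D209N and 6 in Flag, the Rap regulator Sipa1l3 with 4 in D209N and 7 in Flag, and Kalrn, the close relative of Trio, with 5 in D209N and 9 in Flag. At day 7 it was Sipa1l3 alone, with 9 in D209N and 12 in Flag. None was higher by 3 on either day. Among the other 5 genes of the Mediator kinase module, none differed by 3 peaks on either day. Of 12 other Spink genes, 6 had a peak at day 3 and 5 at day 7. The highest count among them was at Spink10, with 3 peaks in each arm at day 3, and 5 in D209N and 3 in Flag at day 7. Over the genes with a peak, the median difference was 0 on both days, with 35.1% lower and 8.26% higher in D209N at day 3 and 24.1% lower and 15.1% higher at day 7.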

How the data were processed

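ATAC-seq peak lists were read for 4 groups, OSKM with RNase H1(D209N) or with Flag at day 3 and day 7, and the lists deposited by the authors hold interval coordinates and names, without a score or other value per peak. CASAVA, Bowtie2 2.3.2, mm10 and GRCm38.p5 are named in the submitters' processing notes. Not given in the sources used here: which program called the peaks, at what threshold, whether cut positions were shifted for the transposase, and how the 2 replicates were joined. Each arm and day has 1 deposited list, whose peak names all carry rep1, so there was no replicate spread and no test, and depth is unknown. The 3 mitochondrial intervals of each list were left out. Intervals that shared at least 1 bp between the arms of a day were merged into regions, in place of a bedtools step, using pandas 2.3.3 and numpy 2.4.6 under Python 3.11.15. The step was tested by merging the Flag list of day 3 with a copy of it in which peaks had been dropped and the rest shifted. Genes came from the RefSeq table of GRCm38.p6, which gives no exons. Wilson 95% intervals came from scipy 1.17.1. Alternatives were body-only, 20 kb and nearest-end assignment, peak width, list length and serial numbers. All 10 genes are named by rule, with family members and the furthest other genes. The genes and lists were chosen with earlier results of these data known.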

Additional observations from a re-analysis of the deposited data

Results flagged for a closer look

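Creb3l2, Slc23a2, Spink13 and Trio differed between the arms in opposite directions on the 2 days, which drew attention to them, and the change of direction was not tested. D209N minus Flag was -8 peaks at day 3 and 1 peak at day 7 at Creb3l2. At Slc23a2 it was 1 at day 3 and -6 at day 7. Spink13 had -1 at day 3 and 8 at day 7, and Trio had -4 at day 3 and 5 at day 7. At Creb3l2, Slc23a2 and Spink13 the day with the smaller difference was 1 peak apart. The Flag count was also multiplied by the ratio of list lengths. At day 3 this gave 4.81 at Spink13, beside 5 in D209N, so that D209N was not lower there. At Trio it gave 12.8 beside 12. At Creb3l2, Slc23a2 and Trio the directions stayed opposite.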

How the results depend on the processing

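No paired analysis was possible because each arm and day has 1 list, and for the same reason no replicate could be left out. With peaks at or above the median width of their list, D209N-only regions at day 7 numbered 9 (28 in the main count) and Flag-only regions 16 at day 3 (43) and 15 at day 7 (41). With the widest peaks and every list as long as the shortest they numbered 17, 22 and 25. D209N-only regions at day 3 numbered 8 by the median width and 13 by the widest peaks (9 in the main count). With peaks that overlap a gene, D209N-only regions at day 3 numbered 4 (9). With the median width asked only of the list that holds the region, chosen after seeing the data, they numbered 1 in D209N and 4 in Flag at day 3, and 1 in D209N and 3 in Flag at day 7. Among differences of at least 3 peaks, those that turned round, D209N minus Flag, were Casz1 (3) and Med13l (1) at day 7 by serial numbers, Spink13 (-1) and Trio (-2) at day 7 and Zbtb7c (2) at day 3 by peaks at or above the median width, and Zbtb7c (2) at day 3 by the widest peaks. Smaller ones that turned round were Zbtb7c at day 7 (-2), to 3 by serial numbers, 2 by median width and 6 by the widest peaks, and by median width Med13l (-2, to 2) and Slc23a2 (1, to -1) at day 3. Differences of at least 3 peaks that fell to 0 by median width were Casz1 and Cdk19 at day 3 and Slc23a2 at day 7. Cdk19 at day 3 also fell to 0 with gene overlap, and Spink13 at day 7 by the widest peaks. The cause was not tested. Of 13 differences of at least 3 peaks, the direction held in 13 with assignment within 20 kb, by nearest end, or without intervals under 50 bp, in 12 with gene overlap, in 11 by serial numbers and by the widest peaks, and in 7 at or above the median width.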
